A study of Danio rerio with 12 samples.

Results

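Class I cytosolic aminoacyl-tRNA synthetases were followed in whole zebrafish larvae with a mutation in both copies of *mia40a* (*chchd4a*), which encodes an oxidoreductase that brings proteins into the mitochondrial intermembrane space. These enzymes were chosen by name, as the cysteine, glutamate-proline, isoleucine, leucine, methionine, glutamine, arginine, valine, tryptophan and tyrosine synthetases of the cytosol. The choice was made with earlier results of these data known. Of 10 symbols, 8 were found in gene tables published with the study, giving 9 genes, since tryptophan has a pair. For *cars*, *mars* and a further leucine gene, 3 genes were added from a gene name table and are described here as additions, named *cars1*, *mars1* and *lars1*. That made 12 genes, of 31953 genes with values at 5 days post fertilization (dpf) and 20963 at 8 dpf.

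RNA came from pools of 5 whole larvae of the AB background, with 4 groups of 3 pools. They were 5 dpf mutants (Mut) and their 5 dpf wild-type (WT) siblings, and 8 dpf Mut and their 8 dpf WT siblings. Mut larvae were homozygous, with the genotype given as mia40awaw1/waw1 in the sample labels, and descended from crosses between heterozygotes, as did the WT siblings. Larvae of both genotypes in the 8 dpf groups had been fed from 5 dpf, heterozygous larvae were not analysed here, and there was a single mutant allele. The authors expected mutants to be starving by 8 dpf and named this as a possible bias on expression. Starvation was not tested here. The *mia40a* transcript itself had normalized values of 264, 262 and 261 in the Mut pools, against 82, 91 and 92 in the WT pools at 5 dpf. It was higher in Mut (log2 fold change 1.56, SE 0.11, adjusted p = 4.28e-05, limma). At 8 dpf it had 383, 413 and 443 in Mut, against 488, 394 and 397 in WT. The groups overlapped at that age. The study's report of a higher *mia40a* transcript rests on these same libraries, so the transcript cannot be used to check the labels at either age.

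An aminoacyl-tRNA synthetase attaches an amino acid to its tRNA and so supplies the ribosome. The synthetases form a pair of unrelated classes. Class I enzymes share a catalytic domain of the Rossmann fold, which class II enzymes lack. Subclass Ia holds the enzymes of isoleucine, leucine, valine, methionine, cysteine and arginine, subclass Ib those of glutamate and glutamine, and subclass Ic those of tyrosine and tryptophan. In mammals the isoleucine, leucine, methionine, arginine, glutamine and glutamate-proline enzymes sit in a multisynthetase complex, and several synthetase genes are known targets of the transcription factor ATF4 in the response to amino-acid shortage.

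Values are read counts per gene that the authors scaled for library size and rounded, here called normalized values. They summed to between 16997847 and 18177809 per library at 5 dpf and between 22595423 and 25417541 at 8 dpf. The ages were normalized separately and a batch was removed from the 8 dpf values, so levels are set side by side only within an age. Fold changes are Mut over WT on the log2 scale of the value plus 1, with a standard error (SE) and a Benjamini-Hochberg adjusted p from limma over all genes tested (22521 at 5 dpf, 20963 at 8 dpf). Called genes had an adjusted p under 0.05 and changed by no less than 0.9 on the log2 scale. The exact permutation test of 1 gene has 0.1 as its smallest p with 3 pools in each group. In bulk RNA of whole larvae, fewer cells of a type and less RNA per cell cannot be told apart.

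At 5 dpf, transcripts of all 12 class I genes were higher in Mut, where the log2 fold change of 49.8% of all genes tested was above 0. All 9 genes found in the study's tables had an adjusted p under 0.05, against 3.82% of all genes tested with that p and a higher value in Mut. Of these 9, 6 also passed the fold threshold and were called, against 0.608% of all genes called higher. No Mut pool overlapped a WT pool for any of the 12, which held for 12.9% of all genes with Mut above WT. The median log2 fold change was 1.01 over the 9 genes and 0.89 over the 12, with -0.0012 over all genes. Of the 9 genes, 3 (*eprs*, *yars* and the second *wars*) appear only in tables of genes the study called, and among the other 6 genes 3 were called. By the gene name table alone, which does not depend on calls, 11 of the 12 genes carry a class I name and 5 of these were called.

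**Figure D1:**
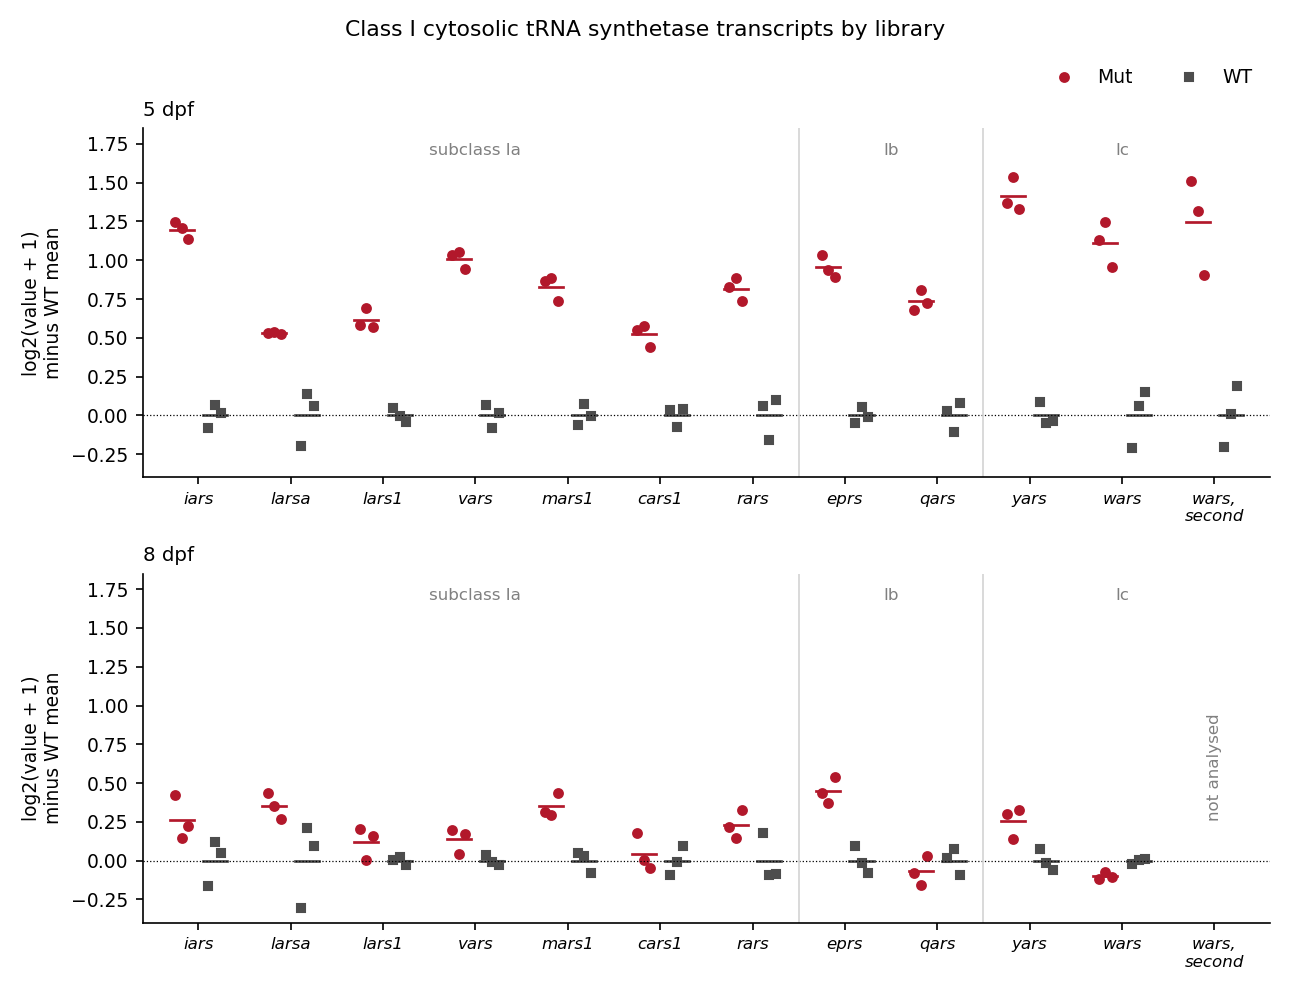
Each point is 1 library, drawn as log2(value + 1) minus the WT mean of the same gene and age (vertical axis, log2 units), with genes by subclass on the horizontal axis, Mut as circles left of WT squares, and short lines for group means. At 5 dpf the Mut points of all 12 genes lie above their WT points, with group means from 0.52 for *cars1* to 1.41 for *yars*. The groups lie closer together at 8 dpf, with Mut above WT without overlap for 6 of 11 genes, against 15.3% of all genes. Those of *wars* are turned round there, though its change did not pass an adjusted p under 0.05.

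The isoleucine synthetase gene *iars* (ENSDARG00000007955) led subclass Ia at 5 dpf. Its normalized values were 2084, 2034 and 1931 in Mut, against 830, 921 and 890 in WT. Every Mut pool held more than any WT pool, with a log2 fold change of 1.20 (SE 0.07, adjusted p = 1.77e-05, limma). The valine gene *vars* (ENSDARG00000044575), whose mammalian product associates with elongation factor 1, had 1425, 1446 and 1341 in Mut, against 730, 658 and 702 in WT. It was called as well, at 1.01 (SE 0.07, adjusted p = 4.49e-05).

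Arginine and methionine enzymes followed below the fold threshold. *rars* (ENSDARG00000054530), which charges arginine tRNA, had 1001, 1039 and 937 in Mut, against 586, 503 and 604 in WT. Its log2 fold change was 0.82 (SE 0.09, adjusted p = 6.36e-04). *mars1* (ENSDARG00000034396), whose enzyme charges both the initiator and the elongator tRNA of methionine, had 849, 862 and 778 in Mut, against 446, 490 and 464 in WT. Its change of 0.83 (SE 0.08, adjusted p = 2.85e-04) lay next to that of *rars*, and both were within 1 SE of the threshold of 0.9.

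The leucine genes and the cysteine gene rose least. *lars1* (ENSDARG00000019280) had 986, 1062 and 976 in Mut, against 679, 655 and 639 in WT, a log2 fold change of 0.61 (SE 0.07, adjusted p = 9.46e-04). *larsa* (ENSDARG00000090988), a second leucine gene, had 171, 172 and 170 in Mut, against 103, 130 and 123 in WT. Its change of 0.53 (SE 0.12) had an adjusted p of 0.033, which reached 0.0815 without the first Mut pool, 0.120 without the second, 0.123 without the third and 0.0846 without the first WT pool. The authors discarded reads that fit both leucine genes, which makes the split between these less certain. For *cars1* (ENSDARG00000036164), the cysteine gene, the values were 852, 866 and 788 in Mut and 595, 551 and 596 in WT, with a change of 0.52 (SE 0.08, adjusted p = 0.00352).

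Subclass Ib held 1 called gene of 2 at 5 dpf, against 0.608% of all genes called higher. That gene, *eprs*, is in the study's tables only among called genes. *eprs* (ENSDARG00000060494) encodes a fused enzyme whose glutamate domain is class I and whose proline domain is class II. It had 4697, 4391 and 4257 in Mut, against 2221, 2386 and 2281 in WT, and was called at 0.95 (SE 0.07, adjusted p = 4.40e-05). The glutamine gene *qars* (ENSDARG00000010316) had 932, 1016 and 960 in Mut, against 592, 540 and 613 in WT. It passed the adjusted p and not the fold threshold, at 0.74 (SE 0.08, adjusted p = 5.69e-04).

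All 3 genes of subclass Ic were called at 5 dpf, against 0.608% of all genes called higher. Of these, *yars* and the second *wars* are in the study's tables only among called genes, so this count is not independent. The tyrosine gene *yars* (ENSDARG00000035913) had 1928, 2157 and 1870 in Mut, against 790, 718 and 727 in WT. Its log2 fold change of 1.41 (SE 0.08, adjusted p = 1.29e-05) was the highest of the 12. The tryptophan gene *wars* (ENSDARG00000100954), which interferon induces in mammals, had 316, 342 and 280 in Mut, against 124, 150 and 160 in WT, at 1.11 (SE 0.13, adjusted p = 8.56e-04). ENSDARG00000104659, also named *wars* in the study's tables, had 166, 145 and 109 in Mut, against 50, 58 and 66 in WT. Its log2 fold change was 1.24 (SE 0.18), given as a description because its name comes only from tables of called genes, and the authors discarded reads that fit both *wars* genes.

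Ranked by log2 fold change at 5 dpf, the genes ran *yars*, the second *wars*, *iars*, *wars*, *vars*, *eprs*, *mars1*, *rars*, *qars*, *lars1*, *larsa* and *cars1*. No 2 neighbours in this order differed by more than 2 combined SE. The ends did differ by more, with *yars* 0.89 above *cars1* (combined SE 0.11). Here and in later comparisons between genes, the combined SE treats genes as independent, though all were measured in the same pools. By subclass the median was 0.82 over 7 genes of Ia, 0.85 over 2 of Ib and 1.24 over 3 of Ic. Grouped by the mammalian complex, a grouping made after the values were seen, the median was 0.82 over 7 genes in the complex, with 2 called, and 1.11 over 5 genes outside it, with 4 called. Subclass Ic and the genes outside the complex include *yars* and the second *wars*, while subclass Ib and the complex include *eprs*. These 3 genes appear in the study's tables only among called genes, and the Ic median is the value of the second *wars*. Among all 22521 genes tested, *yars* ranked 75 from the top by log2 fold change and *cars1* ranked 1087.

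Pools of a group lay close together for most of these genes. The coefficient of variation at 5 dpf had a median of 5.02% over the 12 genes in Mut and 5.26% in WT, and was highest for the second *wars*, at 20.6% in Mut and 13.8% in WT. Within Mut, the third pool held the lowest value for 11 of the 12 genes. The median over the 12 genes, relative to the WT mean, was 0.95, 0.91 and 0.81 on the log2 scale in the Mut pools and -0.0099, 0.0018 and 0.028 in the WT pools.

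At 8 dpf, none of the class I genes was called in limma, and 1 of the 8 found in the study's tables passed an adjusted p under 0.05. With the additions it was 2 of 11, *eprs* and *mars1*, and 5 of 11 had an unadjusted p under 0.05, all with higher values in Mut, against 8.77% of all genes. Over all genes at this age, 0.205% were called higher in Mut and 1.34% had an adjusted p under 0.05 with a higher value in Mut. Mut lay above WT without overlap for 5 of the 8 genes and below it for 1, against 15.3% and 17.3% of all genes. The log2 fold change was above 0 for 9 of the 11 genes, against 52.1% of all genes, with a median of 0.24 over the 8 genes and 0.23 over the 11, and 0.012 over all genes. ENSDARG00000104659 was not analysed here at 8 dpf.

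The 2 genes that passed belong to the mammalian complex, as do 7 of the 11 genes with values at 8 dpf. That grouping was made after the values were seen. *eprs* had 6206, 5926 and 6656 in Mut, against 4897, 4529 and 4324 in WT, with a log2 fold change of 0.45 (SE 0.08, adjusted p = 0.0227, limma). It missed the threshold when any of the 3 Mut pools, the second WT pool or the third WT pool was left out, with adjusted p between 0.0742 and 0.132, and kept a change of 0.36 to 0.49. *mars1* had 1462, 1439 and 1590 in Mut, against 1217, 1197 and 1109 in WT, at 0.35 (SE 0.07, adjusted p = 0.0402). Leaving out any of the 6 pools put it past 0.05, with adjusted p between 0.0517 and 0.189.

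A further group had Mut pools above WT pools with no overlap but did not pass. *iars* had 2375, 1958 and 2068 in Mut, against 1581, 1924 and 1832 in WT, a log2 fold change of 0.26 (SE 0.10, adjusted p = 0.195). *yars*, the highest at 5 dpf, had 2513, 2250 and 2557 in Mut, against 2151, 2023 and 1955 in WT, at 0.25 (SE 0.08, adjusted p = 0.106). The gap was narrow for *iars*, with 1958 in the lowest Mut pool and 1924 in the highest WT pool. For *vars* the values were 1982, 1784 and 1952 in Mut and 1772, 1724 and 1697 in WT, at 0.14 (SE 0.07, adjusted p = 0.301). *larsa* had 136, 128 and 121 in Mut, against 81, 116 and 107 in WT, at 0.35 (SE 0.18, adjusted p = 0.310).

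Mut and WT overlapped for *rars*, *lars1*, *cars1* and *qars* at 8 dpf. *rars* had 1290, 1229 and 1387 in Mut, against 1253, 1039 and 1045 in WT, at 0.23 (SE 0.09, adjusted p = 0.216). *lars1* had 1508, 1315 and 1461 in Mut, against 1315, 1331 and 1285 in WT, at 0.12 (SE 0.07, adjusted p = 0.395). Neither these nor the next genes passed an adjusted p under 0.05 in limma, so none is placed above or below WT here. The unadjusted p of *rars* was 0.0406, with a higher value in Mut. *cars1* had 1125, 999 and 965 in Mut, against 934, 991 and 1065 in WT, at 0.05 (SE 0.09, adjusted p = 0.806), and *qars* had 1149, 1088 and 1242 in Mut, against 1228, 1281 and 1138 in WT, at -0.07 (SE 0.08, adjusted p = 0.676).

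The tryptophan gene *wars* was the one class I gene with all Mut pools below all WT pools at 8 dpf. It had 675, 694 and 679 in Mut, against 721, 735 and 738 in WT. The log2 fold change was -0.10 (SE 0.07) and did not pass (adjusted p = 0.457, limma). Its pools had the narrowest spread of the 11 genes, with a coefficient of variation of 1.47% in Mut and 1.24% in WT, beside medians of 6.12% in Mut and 5.95% in WT. Spread and overlap at 8 dpf were taken after a batch had been removed from the values, so the values of the pools are not independent. Within Mut, the second pool held the lowest value for 8 of the 11 genes. The median over the 11 genes, relative to the WT mean, was 0.22, 0.14 and 0.22 on the log2 scale in the Mut pools and 0.016, 0.0073 and -0.028 in the WT pools.

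By log2 fold change at 8 dpf the order was *eprs*, *larsa*, *mars1*, *iars*, *yars*, *rars*, *vars*, *lars1*, *cars1*, *qars* and *wars*, and again no neighbours differed by more than 2 combined SE. *eprs* stood 0.55 above *wars* (combined SE 0.10). *yars*, *iars* and *wars*, the top 3 of these 11 at 5 dpf, now took the fifth, the fourth and the last place.

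**Figure D2:**
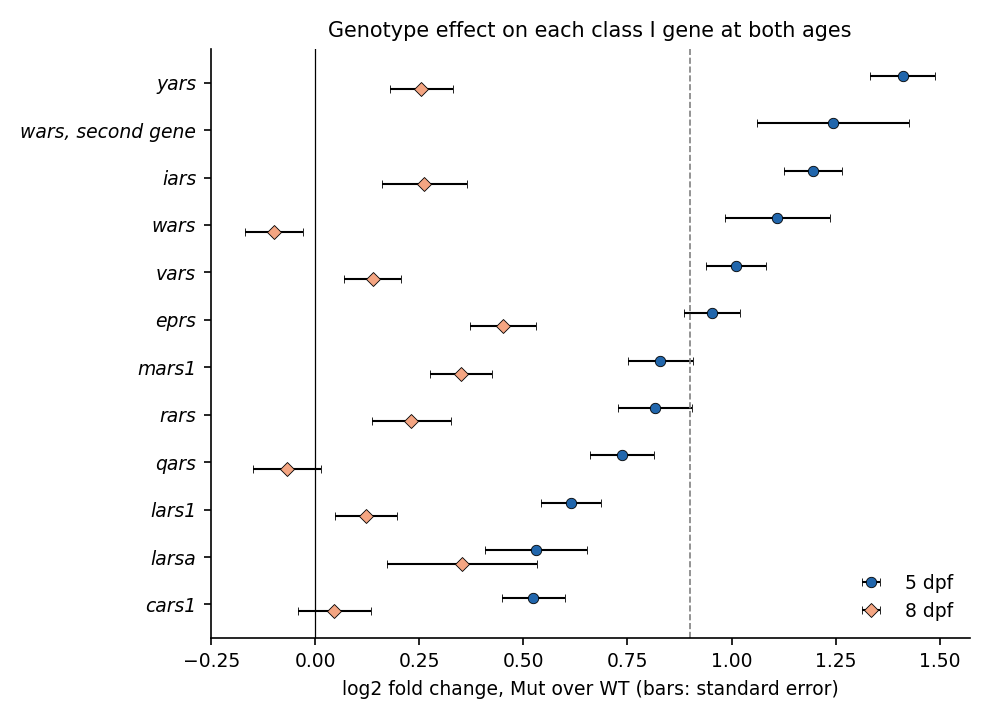
Log2 fold change of Mut over WT (horizontal axis) for each class I gene, with circles for 5 dpf, diamonds for 8 dpf and bars for the standard error, and a dashed line at the threshold of 0.9. *yars* stands at 1.41 at 5 dpf and 0.25 at 8 dpf, *wars* at 1.11 and -0.10, and *larsa* is the one gene whose bars meet.

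The genotype effect was then compared between the ages, as the 8 dpf minus the 5 dpf log2 fold change with Benjamini-Hochberg adjustment over the 20598 genes tested at both. It was smaller at 8 dpf for 7 of the 8 genes found in the study's tables and for 10 of 11 with the additions. *eprs* and *yars* are among these and appear in the study's tables only among called genes. For the 6 genes found there outside such tables, the effect was smaller in 5. Of all genes, 6.15% had a lower effect at 8 dpf by this test, and 1.94% a higher one. The difference was largest for *wars*, at -1.21 (SE 0.14, adjusted p = 1.09e-04), and *yars*, at -1.16 (SE 0.11, adjusted p = 5.45e-06). *eprs*, which kept 47.3% of its 5 dpf effect, differed by -0.50 (SE 0.10, adjusted p = 0.00576). *larsa* was the exception, at -0.18 (SE 0.22, adjusted p = 0.698). Such a decline was common to genes chosen for a high effect at 5 dpf, since 80 of the 114 genes called higher at 5 dpf and tested at both ages (70.2%) also had a lower effect at 8 dpf. Age, feeding, the separate normalization and the batch removed at 8 dpf cannot be told apart in this difference.

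Class II cytosolic synthetases, the structurally unrelated enzymes for the other amino acids, were measured in the same pools. At 5 dpf, 7 of 10 were called higher, against 0.608% of all genes, with a median log2 fold change of 0.95. Of the 10, 9 passed an adjusted p under 0.05 with higher values in Mut, against 3.82% of all genes. *aars*, *farsa*, *farsb* and *nars*, all called here, are in the study's tables only among called genes, though the gene name table holds them too. The threonine gene *tars* (1.50, SE 0.08) and the lysine gene *kars* (1.41, SE 0.09) were highest, beside 1.41 for *yars*. The aspartate gene *dars* was lowest, with 3000, 3219 and 3011 in Mut, against 2998, 2670 and 2404 in WT, at 0.20 (SE 0.09, adjusted p = 0.226). At 8 dpf none was called in limma, and the median was 0.29. An adjusted p under 0.05 with higher values in Mut was reached by 3 of 10, against 1.34% of all genes. For an unadjusted p under 0.05 with higher values in Mut it was 7, against 8.77% of all genes.

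Mitochondrial class I synthetases, are encoded by separate nuclear genes. At 5 dpf, 1 of 9 was called higher, against 0.608% of all genes, with a median of 0.23. An adjusted p under 0.05 with a higher value in Mut was reached by 3, against 3.82% of all genes. The 3 were the leucine gene *lars2*, with 115, 106 and 84 in Mut, against 53, 41 and 63 in WT (0.95, SE 0.20, adjusted p = 0.0191), *yars2* (0.59, SE 0.13, adjusted p = 0.0299) and *iars2* (0.38, SE 0.09, adjusted p = 0.0426). The called gene, *lars2*, is in the study's tables only among called genes, though the gene name table holds it too. All 3 missed the threshold without the first or second Mut pool or the first WT pool, and 2 of the 3 when the last Mut or WT pool was left out. *cars2* was lowest, at -0.03 (SE 0.15). At 8 dpf none of the 9 passed in limma, 1 had an unadjusted p under 0.05 (*ears2*, lower in Mut, as for 12% of all genes), and the median was -0.025.

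In a comparison made after the values were seen, 10 cytosolic genes were set beside the mitochondrial gene for the same amino acid, with *lars2* beside both leucine genes. *qars*, which has no counterpart in the mitochondrial list, and the second *wars* were left out. At 5 dpf the cytosolic change was the higher one by more than 2 combined SE in 8 of 10 pairs. For valine the log2 fold changes were 1.01 for *vars* and 0.16 for *vars2*, a difference of 0.85 (combined SE 0.12). For tyrosine they were 1.41 for *yars* and 0.59 for *yars2*, a difference of 0.82 (combined SE 0.15). Leucine was the exception, with *lars2* at 0.95, above *lars1* at 0.61 and *larsa* at 0.53, though by less than 2 combined SE. At 8 dpf 3 of 10 pairs differed by more than 2 combined SE, those of *eprs* (0.70, combined SE 0.13), *yars* (0.42, combined SE 0.17) and *iars* (0.38, combined SE 0.13). *eprs*, *yars* and *lars2* are in the study's tables only among called genes, and *eprs* and *yars* are also in the 8 pairs of 5 dpf. No share was taken over pairs of other genes.

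Scaffold proteins of the multisynthetase complex were covered by 4 genes, none of them called. At 5 dpf *aimp2*, which bridges the parts of the complex, had 1385, 1444 and 1503 in Mut, against 1018, 970 and 911 in WT, at 0.58 (SE 0.07, adjusted p = 0.00138). The second of a pair of *aimp1* genes (ENSDARG00000060036) also passed, at 0.52 (SE 0.08, adjusted p = 0.00525). Of all genes, 3.82% had an adjusted p under 0.05 with a higher value in Mut at 5 dpf. The first *aimp1* gene (ENSDARG00000036894) was lowest at -0.08 (SE 0.11), so the members of the pair differed in value. None passed at 8 dpf in limma, with 2 of 4 at an unadjusted p under 0.05 and in opposite directions, the first *aimp1* gene at 0.42 (8.77% of all genes were higher at that p) and *eef1e1* at -0.37 (12% were lower).

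None of the 9 cytosolic elongation factor genes passed at 5 dpf in limma. An unadjusted p under 0.05 with a higher value in Mut was reached by 1, against 11.3% of all genes. Mut lay above WT without overlap for 4 of the 9, against 12.9% of all genes. *eef1b2* (0.29, SE 0.09, adjusted p = 0.0989) and *eef1a2* (0.25, SE 0.21) were highest and *eef2a.2* (-0.34, SE 0.24) lowest. At 8 dpf *eef2a.1* fell, with 714, 615 and 700 in Mut, against 934, 891 and 871 in WT (-0.41, SE 0.08, adjusted p = 0.0362), and it was chosen for mention after its value was seen. Of all genes at that age, 3.32% had an adjusted p under 0.05 with a lower value in Mut.

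Among 17 regulators and markers of the amino-acid response, 3 were called higher at 5 dpf, against 0.608% of all genes, with a median of 0.13. Of the 17, 7 passed an adjusted p under 0.05 with higher values in Mut, against 3.82% of all genes. *asns*, the asparagine synthetase gene that responds to amino-acid shortage, had 1015, 1040 and 902 in Mut, against 299, 237 and 373 in WT (1.72, SE 0.14, adjusted p = 1.41e-04). *sesn2*, an inhibitor of TORC1 signalling, had 208, 245 and 231 in Mut, against 84, 94 and 81 in WT (1.39, SE 0.12, adjusted p = 1.66e-04). In the study's tables both *asns* and *sesn2* are named only among called genes. The rest of the 7 were *atf3*, also called (0.96, SE 0.11), *atf5b* (0.82, SE 0.08), *cebpb* (0.77, SE 0.15), *trib3* (0.66, SE 0.08) and *eif4ebp1* (0.34, SE 0.07). The ATF4 gene *atf4b* did not pass (0.19, SE 0.06, adjusted p = 0.105, limma), and it was chosen for mention after its value was seen. Its other copy, *atf4a*, had no values at either age, so ATF4 transcripts were covered only in part. *nupr1a*, a relative of a stress-induced gene of mammals, was lowest at -0.25 (SE 0.12, adjusted p = 0.301). At 8 dpf none of 16 was called in limma, and 2 passed with an adjusted p under 0.05 and higher values in Mut, against 1.34% of all genes. With an unadjusted p under 0.05, 7 of 16 had higher values in Mut, against 8.77% of all genes.

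**Figure D3:**
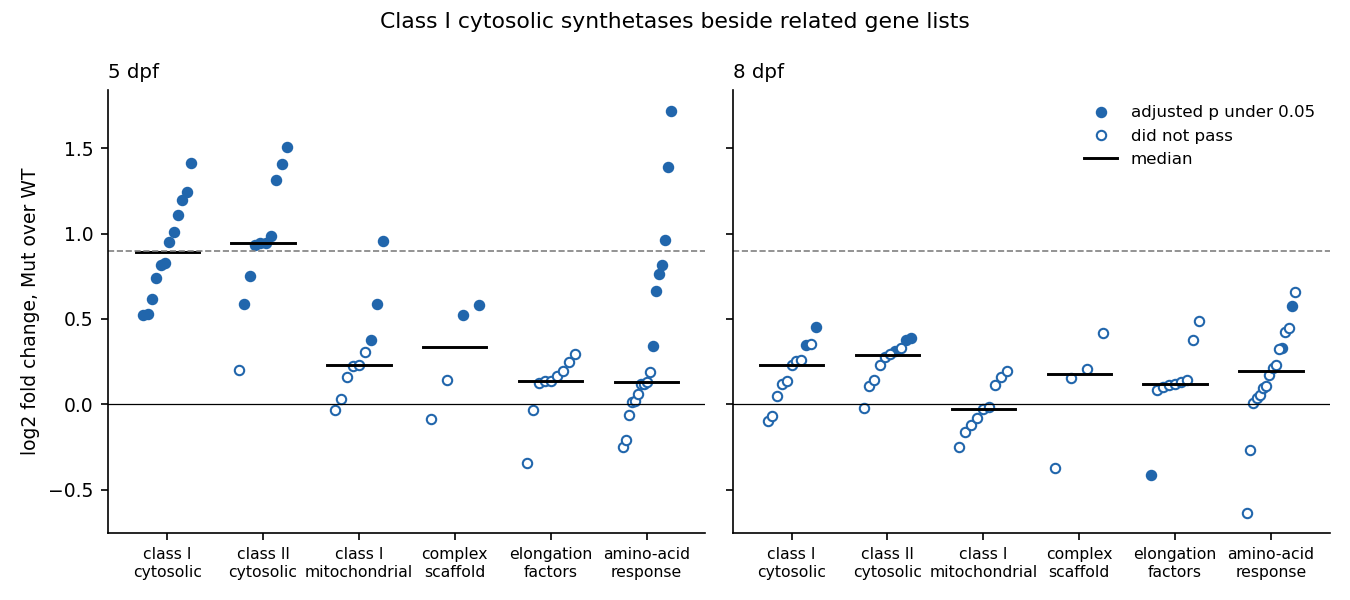
Log2 fold change of Mut over WT (vertical axis) for every gene of 6 lists, at 5 dpf on the left and 8 dpf on the right, with filled points for an adjusted p under 0.05, open points for genes that did not pass, bars for list medians and a dashed line at 0.9. At 5 dpf the medians of class I (0.89) and class II (0.95) cytosolic synthetases stand above those of the mitochondrial class I genes (0.23) and elongation factors (0.14).

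The genes with the profile most like that of class I were sought over the 12 libraries, as the smallest root mean square distance, in log2 units relative to the WT mean, from the median profile of the 8 genes with values at both ages. Among 13303 genes compared, the 5 nearest outside class I were *farsa* (0.052), *farsb* (0.056), *hars* (0.056), *atic* (0.091) and *hspa9* (0.093). *farsa* and *farsb* encode the subunits of the phenylalanine synthetase and *hars* the histidine synthetase, also named HARS2 in the gene name table, all of class II. *atic* encodes an enzyme of purine synthesis and *hspa9* the mitochondrial HSP70 chaperone. Their log2 fold changes at 5 dpf were 0.93 for *farsa*, 0.95 for *farsb*, 0.99 for *hars*, 0.92 for *atic* and 0.95 for *hspa9*. At 8 dpf they were between 0.05 for *hspa9* and 0.30 for *farsa*, with no adjusted p under 0.05.

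**Figure D4:**
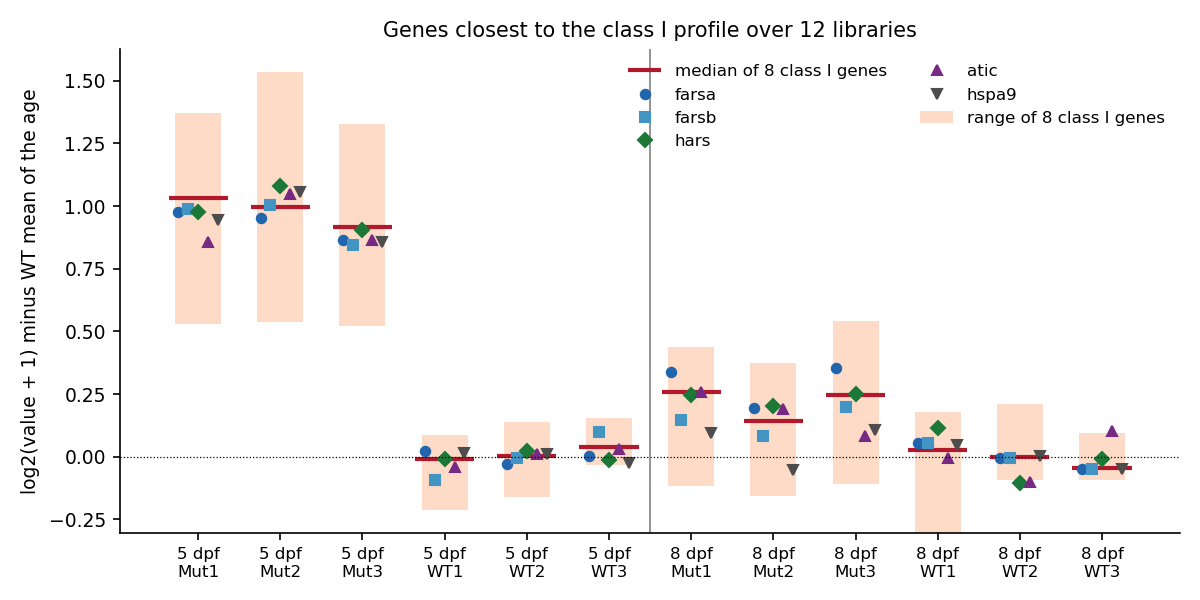
Log2(value + 1) minus the WT mean of the age (vertical axis) in each of the 12 libraries (horizontal axis), with shaded bars for the range and lines for the median of 8 class I genes, and symbols for the 5 nearest other genes. In the Mut libraries at 5 dpf all 5 lie within the class I range. They were picked for closeness in these same libraries, so their place in it is no separate result.

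Organ markers differed between the same pools. Of 16 acinar pancreas markers, 15 passed an adjusted p under 0.05 with lower values in Mut at 5 dpf, against 2.17% of all genes, and 11 of them were called lower, against 0.546%. These markers are named in the study among its own called genes, so the count is not independent evidence of their direction. Their summed normalized value was 69016 to 85748 in Mut and 135580 to 188920 in WT. The 2 highest were *cpa5* (-0.22, SE 0.13) and *prss59.2* (-0.58, SE 0.13), and *pla2g1b* was lowest (-2.52, SE 0.20). At 8 dpf none of the 16 passed in limma, 9 had an unadjusted p under 0.05 with lower values in Mut (12% of all genes did), and the sums were 10518 to 30888 in Mut and 22124 to 69121 in WT. Of 12 liver markers, 5 passed an adjusted p under 0.05 with lower values in Mut at 5 dpf, again against 2.17% of all genes. Of these, *fabp10a*, *ahsg2* and *ttr* are in the study's tables only among called genes, so this count is not independent either. The sums were 105187 to 122621 in Mut and 127948 to 170278 in WT. *fgb* (0.21, SE 0.13) and *fga* (0.21, SE 0.15) were highest and *ahsg2* (-6.00, SE 0.25) lowest. At 8 dpf 3 liver markers fell, against 3.32% of all genes with an adjusted p under 0.05 and a lower value in Mut, with sums of 58175 to 76392 in Mut and 82695 to 127006 in WT. No marker was at 0 in any library. Summed over the 12 class I genes, the values were 14397 to 15532 in Mut and 7746 to 7865 in WT at 5 dpf. The part of the organ markers in the class I result was not tested.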

How the data were processed

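Paired stranded mRNA reads of 12 libraries were trimmed by the authors with Trimmomatic 0.33, aligned with STAR 2.4.0a to GRCz10 and counted per Ensembl gene with featureCounts 1.4.5-p1, without multi-mapping reads or reads on more than 1 gene. The deposited values are scores, that is counts normalized for library size and rounded by the authors, with a batch removed by edgeR 3.16.5 at 8 dpf, so no count model was used. Fold changes and p-values of the authors' own comparisons were not used.

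Log2(value + 1) was fitted per age with limma 3.58.1 in R 4.3.3 (eBayes with trend, two-sided, Benjamini-Hochberg over all genes with a mean of at least 5). At 8 dpf the model also held the batch (library 3 of each genotype against libraries 1 and 2), which the values show: over 16617 genes the mean of the 2 libraries numbered 3 lay within 0.0999 of that of the other 4 on the log2 scale, against up to 2.43 over 17494 genes at 5 dpf. Python 3.11.15, numpy 2.4.6 and matplotlib 3.10.9 made the tables and figures. The difference between the ages used Satterthwaite degrees of freedom. The fit was tested on simulated data.

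Symbols came from the study's supplementary tables, matched without regard to case, and for further genes from a gene name table. All matched class I genes, *mia40a*, the 2 highest and the 1 lowest gene of each other list at 5 dpf and the 5 genes of most similar pattern (mean of at least 100 at both ages) were named. Members and lists were chosen with earlier results of these data known. No source says that pools with the same number share an origin, and p-values measure only the spread between these pools. The depth per library before scaling was not used, and scores near 0 are the least precise. Alternatives were pseudocounts of 0.5 and 5, other filters and scalings, eBayes without trend, a log2 fold change threshold of 1, the replicate number as a block, no batch term or the larger batch alone at 8 dpf, leaving out each library, and fewer or, chosen after seeing the data, more genes. No protein or promoter sequences were used here.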

Additional observations from a re-analysis of the deposited data

Results flagged for a closer look

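The genotype effect on 10 of the 11 class I genes with values at both ages differed between the ages by the test of the difference itself (8 dpf minus 5 dpf log2 fold change, limma fits, adjusted over all genes tested at both ages). By this test 6.15% of all genes had a lower effect at 8 dpf. So did 70.2% of the 114 genes called higher at 5 dpf and tested at both ages. *eprs* and *yars* are in the study's tables only among called genes. For the 6 genes found there outside such tables, the effect was lower at 8 dpf in 5. Age, feeding, the separate normalization and the batch removed at 8 dpf cannot be told apart in this difference. In subclass Ia the difference was -0.93 for *iars*, -0.87 for *vars*, -0.59 for *rars*, -0.49 for *lars1*, -0.48 for *mars1* and -0.48 for *cars1*. In subclass Ib it was -0.81 for *qars* and -0.50 for *eprs*, and in subclass Ic -1.21 for *wars* and -1.16 for *yars*. All 10 effects were smaller at 8 dpf, and for *wars* and *qars* the 8 dpf value lay below 0 without passing its own test. The share of each 5 dpf effect that was left at 8 dpf was between 8.76% for *cars1* and 47.3% for *eprs* among the 8 other genes. The difference of *cars1* missed an adjusted p of 0.05 without the second Mut pool (0.0667), the third Mut pool (0.0837) or the third WT pool (0.0844) of 8 dpf. Those of *rars* (0.0611), *mars1* (0.0587), *eprs* (0.0554) and *lars1* (0.0504) missed it in 1 alternative each, not by leaving out a library.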

How the results depend on the processing

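The count of 6 class I genes called at 5 dpf was also 6 under both pseudocounts, both scalings, the filter at a mean of 20, eBayes without trend and the replicate block, and 6 to 6 with each library left out. It was 4 with no filter, 5 at a log2 fold change of 1 and 3 of 6 when genes named only in tables of called genes were left out. The count with an adjusted p under 0.05 was 8 to 9 with each library left out and 8 with the replicate block, without trend or with scaling to the same total, *larsa* being the gene lost, and 6 with no filter, when both *wars* genes were lost too. At 8 dpf the count called was 0 under every alternative run. The count of 1 with an adjusted p under 0.05 was 0 without trend, with libraries 1 and 2 only and without genes named only in tables of called genes, 2 with no batch term, 2 of all 11 class I genes (an alternative chosen after seeing the data), 1 with the replicate block, and 0 to 1 with each library left out. *mars1* at 8 dpf missed the threshold with the replicate block (adjusted p = 0.0765) and with scaling to the same total (0.0953). The log2 fold change of *cars1* at 8 dpf ran from -0.0299 to 0.14 with each library left out, and its sign turned without the first Mut or the first WT pool. The count whose effect differed between the ages was 7 to 7 with each library left out, 7 with the replicate block and 5 without trend. Over all genes, 137 called higher at 5 dpf became 62 with no filter and 87 without trend, and 123 called lower became 32 and 72. At 8 dpf, 43 higher and 147 lower became 0 and 0 without trend, which left 3873 genes at an unadjusted p under 0.05, and 13 and 78 with libraries 1 and 2 only. With no batch term 83 genes were called higher, and at a log2 fold change of 1 there were 26. With each library left out the counts ran from 91 to 223 higher and 92 to 146 lower at 5 dpf, and from 3 to 60 higher and 23 to 135 lower at 8 dpf. The 3 mitochondrial class I genes of 5 dpf became 0 with no filter, without trend and with the replicate block, and the 2 scaffold genes became 1 with no filter and without trend. Pools of the same number did not deviate together at 5 dpf, with correlations of -0.28, -0.19 and -0.096 across 17494 genes. Among the 3 class II genes and 2 amino-acid response genes that passed at 8 dpf, counts were 0 to 1 with each library left out, 6 and 4 with no batch term, and 0 and 0 with the replicate block. Upper-quartile scaling gave 6 class II genes and scaling to the same total 0. The causes of these changes were not tested.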
